A study of Mus musculus with 6 samples.

Results

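Voltage-gated calcium channels are built around a pore-forming alpha1 subunit, and the genes described here encode the subunits that accompany it. They are the 4 beta subunit genes (Cacnb1, Cacnb2, Cacnb3 and Cacnb4), the 4 alpha2delta genes (Cacna2d1, Cacna2d2, Cacna2d3 and Cacna2d4) and a pair of gamma subunit genes (Cacng4 and Cacng5). They were taken by symbol from these families, by a rule that uses no measured value, though with earlier results of these data known, and all 10 were found among the 32371 genes of the count table.

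The table came from RNA-Seq of retinal cells of C57BL/6J mice. The control group received an intravitreal injection of AAV2-GFP (3 libraries), and the other group received AAV2-Ezh2-Y726D (3 libraries), which carries a catalytically dead form of the histone methyltransferase Ezh2. Both groups underwent optic nerve crush (ONC) at 2 weeks from the injection, and retinal ganglion cells (RGCs) were enriched 3 days later by FACS with an antibody against CD90.2, the surface protein made from Thy1. The sort used no viral reporter, so transduced and other CD90.2-positive cells entered the libraries alike. The promoter of the AAV2 vectors, and whether a library held the retinas of 1 mouse or several, are not given in the sources used here, so the P values measure the spread between these libraries. As the GFP group also carried virus and an ONC, the comparison is of Ezh2-Y726D overexpression with GFP in injured eyes, and no uninjured eye was analysed here.

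Beta subunits are cytoplasmic proteins that bind the alpha1 subunit, carry it to the membrane and tune its opening. Alpha2delta subunits sit on the outer face of the membrane, raise the number of channels at presynaptic terminals and bind extracellular partners such as thrombospondins. Gamma-4 and gamma-5 are better known as transmembrane AMPA receptor regulatory proteins (TARPs), which move AMPA-type glutamate receptors to the synapse and slow or shape their currents. In the retina, photoreceptors and bipolar cells release glutamate through L-type channels at ribbon synapses, whereas amacrine cells and RGCs carry a broader set of channels.

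RefSeq promoters on GRCm38.p6, each 300 bases long from 250 bases before to 50 after a transcript start, were matched by symbol for 8 of the 10 genes, with 14 promoters in all. Cacna2d4 and Cacng4 had no entry. The promoters of 4 genes are shown because these genes cover the range of changes described below, from the largest rise (Cacng5) through Cacna2d3 and Cacnb4 to Cacnb2, which did not pass the test. They are written 5′ to 3′ on the strand of the gene, and capitals mark CG dinucleotides.
Cacng5, chr11:107915006-107915305, minus strand: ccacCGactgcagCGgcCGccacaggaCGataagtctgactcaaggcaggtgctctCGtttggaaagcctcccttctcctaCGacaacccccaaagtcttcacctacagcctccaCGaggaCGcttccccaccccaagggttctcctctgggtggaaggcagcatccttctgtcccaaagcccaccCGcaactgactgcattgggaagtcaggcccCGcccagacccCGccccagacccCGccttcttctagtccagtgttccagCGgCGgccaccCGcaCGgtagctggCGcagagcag
Cacng5, second start, chr11:107911313-107911612, minus strand: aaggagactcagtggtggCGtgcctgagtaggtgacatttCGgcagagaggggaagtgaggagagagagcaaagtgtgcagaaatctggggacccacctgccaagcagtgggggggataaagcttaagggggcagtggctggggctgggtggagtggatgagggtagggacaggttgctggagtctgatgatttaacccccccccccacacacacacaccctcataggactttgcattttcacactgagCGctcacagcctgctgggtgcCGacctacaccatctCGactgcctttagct
Cacna2d3, chr14:29721815-29722114, minus strand: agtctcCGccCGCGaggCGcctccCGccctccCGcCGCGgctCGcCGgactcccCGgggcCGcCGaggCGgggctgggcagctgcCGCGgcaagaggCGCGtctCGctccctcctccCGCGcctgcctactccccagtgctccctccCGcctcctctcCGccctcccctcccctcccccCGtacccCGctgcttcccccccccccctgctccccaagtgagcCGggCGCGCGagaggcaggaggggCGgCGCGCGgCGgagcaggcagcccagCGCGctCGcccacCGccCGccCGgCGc
Cacnb4, chr2:52676094-52676393, minus strand: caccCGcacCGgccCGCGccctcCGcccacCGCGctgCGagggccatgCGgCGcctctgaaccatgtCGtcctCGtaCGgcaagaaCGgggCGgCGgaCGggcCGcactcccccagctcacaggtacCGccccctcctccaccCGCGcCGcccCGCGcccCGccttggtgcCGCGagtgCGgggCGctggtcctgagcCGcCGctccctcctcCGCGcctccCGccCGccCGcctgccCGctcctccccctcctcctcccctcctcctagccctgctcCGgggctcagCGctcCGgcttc
Cacnb2, chr2:14604056-14604355, plus strand: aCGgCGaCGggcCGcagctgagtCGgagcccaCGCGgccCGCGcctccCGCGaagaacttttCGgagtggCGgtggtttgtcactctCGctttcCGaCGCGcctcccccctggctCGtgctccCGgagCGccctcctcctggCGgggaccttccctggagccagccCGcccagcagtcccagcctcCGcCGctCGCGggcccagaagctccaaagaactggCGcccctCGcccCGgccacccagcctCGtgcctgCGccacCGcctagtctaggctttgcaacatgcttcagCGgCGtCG

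Most of these genes had at least 1 start rich in CG dinucleotides. The promoters of Cacna2d1, Cacna2d2 and Cacna2d3 held 42, 43 and 41 CG dinucleotides, and the richest start of each beta gene held 34 (Cacnb1), 35 (Cacnb2), 29 (Cacnb3) and 40 (Cacnb4). The other starts of the beta genes held 3 (Cacnb1), 4 (Cacnb2), 7 (Cacnb3), and 5 and 27 (Cacnb4). Cacng5 held 17 in the first promoter shown, fewer than the richest start of each of these genes, and 5 in the second. Among all 32851 mouse promoters of the same length, the median was 7 and the quartiles were 3 and 20. The richest starts of Cacnb2, which did not pass the test, and of Cacnb4, which rose, thus both lay above the upper quartile. The GC box letters GGGCGG, searched on both strands, had 7 matches in the promoter of Cacna2d1, 1 in that of Cacna2d2 and 6 in that of Cacna2d3. The promoter of Cacnb4 shown above held 6, that of Cacnb2 shown held 1 and the first of Cacng5 held 2. The CG-richest starts of Cacnb1, which did not pass, and of Cacnb3, which rose, held 5 and 4. Of the other starts, that of Cacnb3 held 1 and those of Cacnb1, Cacnb2, Cacnb4 and Cacng5 held none. At least 1 match was found in 35.66% of all promoters. The letters TATAAA and CACGTG were in none of the 14 promoters, compared with 13.62% and 7.15% of all promoters. The letters CCAAT were in 37.41% of all promoters and in 1 promoter each of Cacng5, Cacnb3 and Cacnb4. These matches describe letters only, and the GC box itself contains a CG.

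The 6 libraries differed in depth. Total counts ran from 9333244 to 23782520, and an rRNA gene, CT010467.1, took between 2.55% and 16.1% of the reads in 4 libraries but 50.9% and 52.2% in GFP replicates 2 and 3, which kept 5745352 and 4460732 other counts. The least counted subunit gene, Cacnb1, still had 86 reads in GFP replicate 3, so none of the 10 genes was near the floor of 3 reads. Ezh2 itself rose from 22.7 to 26.3 CPM in the GFP libraries to between 65.1 and 65.5 CPM in the Ezh2-Y726D libraries (log2 fold change 1.46, SE 0.0614, adjusted P = 3.00e-16), where CPM (counts per 1e6) refer to the TMM-scaled library. Reads of the mouse gene and of the vector cannot be told apart in gene counts.

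The libraries held RNA of many retinal cell types beside RGCs. Gnat1, the rod transducin gene, stood at 928.1 to 1064 CPM and Glul, a Müller glia gene, at 2735 to 3023 CPM, whereas the RGC genes Slc17a6 and Rbpms stood at 76.1 to 85.9 and 12.4 to 16.9 CPM. Markers of retinal and other cell types were compared between the groups with edgeR at an adjusted P threshold of 0.05, by which 13.9% of all genes rose and 13.6% fell. All 8 amacrine markers rose, with summed levels of 1230 to 1374 CPM in GFP and 1959 to 2036 CPM in Ezh2-Y726D. All 7 cone markers fell (406.5 to 428.0 against 265.5 to 279.0 CPM), and 6 of 7 bipolar markers fell while Prkca rose (932.6 to 943.9 against 773.4 to 790.8 CPM). Of the 10 RGC markers, 2 rose (Pou4f1 and Thy1) and none fell past the test, with overlapping sums of 443.8 to 457.0 and 433.7 to 472.1 CPM. Of 8 rod markers 3 rose (5650 to 5820 against 6195 to 6395 CPM), and of 7 Müller glia markers 3 rose and 1 fell. All 7 T cell markers fell (100.9 to 105.2 against 59.0 to 64.4 CPM), as did 6 of 8 microglia markers (751.3 to 841.0 against 487.5 to 571.6 CPM) while P2ry12 rose (log2 fold change 0.33, SE 0.111). The list with the lowest median log2 fold change (-1.20) was that of activated phagocytes, of which 5 of 6 fell (289.1 to 326.6 against 105.2 to 113.6 CPM), Gpnmb by the most (-2.31, SE 0.0555), while Lpl rose. Of the markers tested, 4 of 5 for pericytes and smooth muscle, 2 of 3 for astrocytes, 2 of 5 for endothelial cells and 1 of 4 for the oligodendrocyte lineage fell and none rose, and none of 3 for horizontal cells passed. Olig1 and Olig2, which define oligodendrocyte lineage cells, were at 0 in all GFP libraries. In bulk RNA, fewer cells of a type and less RNA per cell cannot be told apart. The part of these cell types in the values below was not tested.

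Ezh2-Y726D overexpression was accompanied by higher levels of most auxiliary subunit genes and a lower level of 1. With edgeR's quasi-likelihood test and an adjusted P threshold of 0.05, 7 of the 10 genes rose (Cacnb3, Cacnb4, Cacna2d1, Cacna2d2, Cacna2d3, Cacng4 and Cacng5), Cacna2d4 fell, and Cacnb1 and Cacnb2 did not pass. Of all 18138 genes tested, 27.5% passed, 13.9% as higher and 13.6% as lower. The median log2 fold change of the 10 genes was 0.30, compared with 0.00 over all genes, whose quartiles were -0.15 and 0.15. Most of the changes were small: Cacng5 alone also passed the fold change of 1.5 that the study used, which 8.02% of all genes did. The levels of the GFP and Ezh2-Y726D libraries did not overlap for 9 of the 10 genes, against 38.6% of all genes, and Cacnb1 was the exception. These directions are relative to all genes. Scaling by library totals, which the rRNA gene dominates in GFP replicates 2 and 3, moved the median of all genes to 0.49. It moved the value of Cacna2d4 to 0.07, or -0.42 relative to that median. Under this scaling none of the 8 calls passed in edgeR, which called 65 of the 18138 genes. DESeq2 with its own size factors kept the 8 calls.

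**Figure D1:**
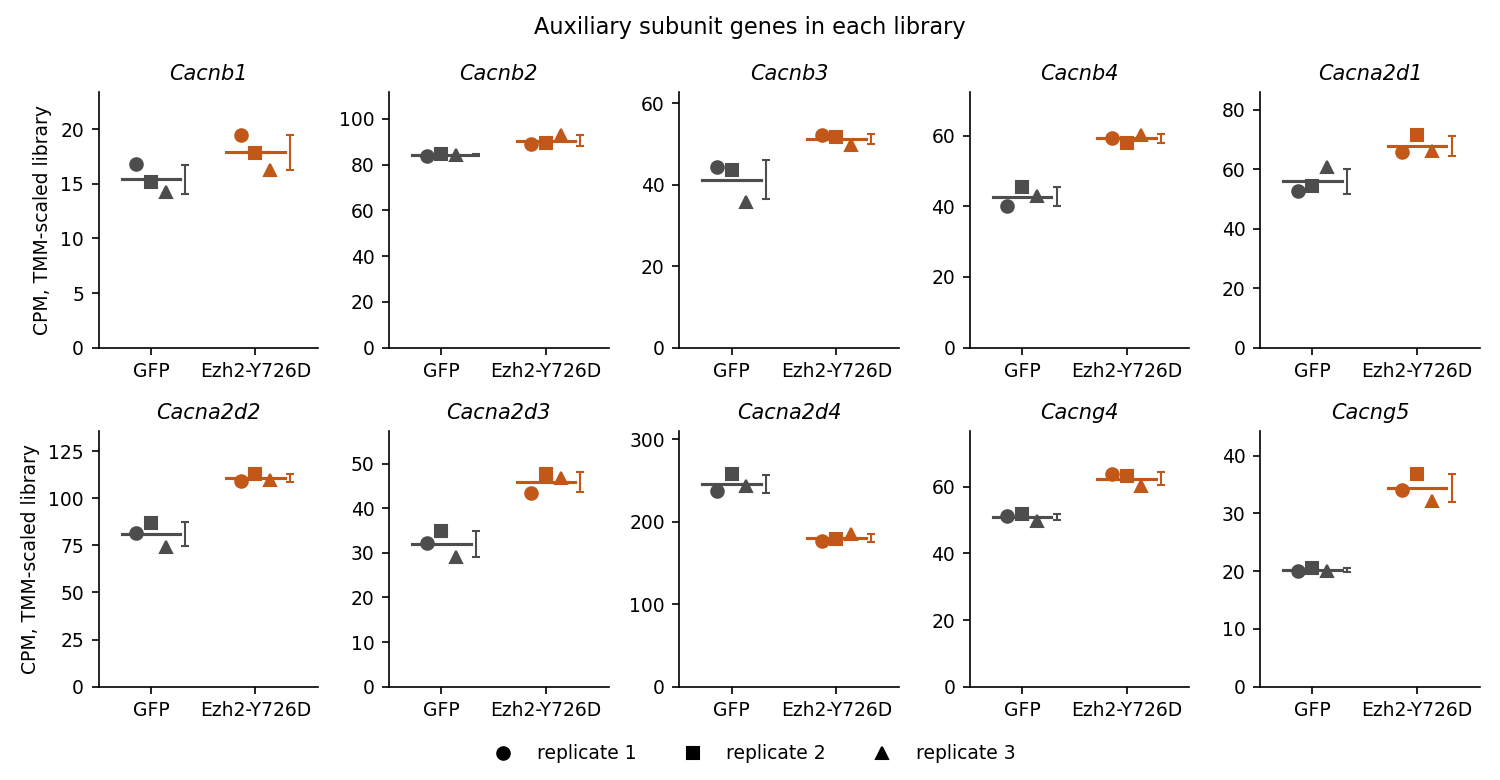
Levels of the 10 auxiliary subunit genes in CPM of the TMM-scaled library, with a linear axis from 0 for each gene. Points are libraries (GFP in gray, Ezh2-Y726D in orange), horizontal lines are group means and bars are the SD of 3 libraries. The groups overlap for Cacnb1, and Cacna2d4 is the gene whose Ezh2-Y726D libraries (176.6 to 185.6 CPM) all lie under the GFP libraries (237.0 to 258.4 CPM).

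Among the beta subunits, Cacnb4 showed the largest rise. Cacnb4 (ENSMUSG00000017412, chromosome 2, 52428320 to 52676831, GENCODE vM21 on GRCm38) encodes a beta subunit of brain channels whose loss causes the ataxia of lethargic mice. Its level was 39.97, 45.34 and 42.90 CPM in GFP replicates 1, 2 and 3 and 59.37, 57.94 and 60.27 CPM in Ezh2-Y726D replicates 1, 2 and 3. Every Ezh2-Y726D library was above every GFP library, with a log2 fold change of 0.50 (SE 0.0567, adjusted P = 6.85e-08). Of its exonic bases, 16% are shared with A430018G15Rik on the other strand, and as the strand setting of the counting is not given in the sources used here, its counts are uncertain.

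Cacnb3 (ENSMUSG00000003352, chromosome 15, 98630840 to 98644529), a beta subunit of neuronal N-type and other channels, rose by less. Its level was 44.35, 43.53 and 35.78 CPM in the GFP libraries and 52.28, 51.63 and 49.81 CPM in the Ezh2-Y726D libraries. The groups did not overlap, and GFP replicate 3, among the shallowest libraries, lay farthest from the others (log2 fold change 0.28, SE 0.0622, adjusted P = 9.32e-04).

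Cacnb2 (ENSMUSG00000057914, chromosome 2, 14603088 to 14987908), a beta subunit of cardiac channels and of photoreceptor terminals, held 83.54, 84.62 and 84.14 CPM in GFP and 88.79, 89.50 and 93.10 CPM in Ezh2-Y726D. The groups did not overlap, but the difference was small (log2 fold change 0.11, SE 0.0445) and missed the threshold (adjusted P = 0.0731). Of its exonic bases, 7.32% are shared with other genes on the minus strand. Cacnb1 (ENSMUSG00000020882, chromosome 11, 98001508 to 98023034), best known as the beta subunit of skeletal muscle, was the lowest of the family in reads, with 16.85, 15.20 and 14.24 CPM in GFP and 19.51, 17.86 and 16.31 CPM in Ezh2-Y726D. Here Ezh2-Y726D replicate 3 lay under GFP replicate 1, and the difference did not pass (log2 fold change 0.16, SE 0.0866, adjusted P = 0.185). Its value moved with single libraries, being 0.09 without Ezh2-Y726D replicate 1 and 0.27 without GFP replicate 1. With same-numbered libraries treated as blocks in edgeR, Cacnb1 passed (log2 fold change 0.21, adjusted P = 0.0409), but the design gives no such pairing.

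The alpha2delta family divided, with 3 genes higher and the most abundant of them lower. Cacna2d4 (ENSMUSG00000041460, chromosome 6, 119236526 to 119352407) encodes the alpha2delta subunit of photoreceptor ribbon synapses, and its loss causes a cone-rod dysfunction. Its level was 237.0, 258.4 and 243.0 CPM in the GFP libraries and 176.6, 179.5 and 185.6 CPM in the Ezh2-Y726D libraries. Every Ezh2-Y726D library lay under every GFP library, and the log2 fold change was -0.44 (SE 0.0412, adjusted P = 1.64e-09), a 1.36-fold lower level.

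Cacna2d3 (ENSMUSG00000021991, chromosome 14, 28904943 to 29721864), an alpha2delta subunit of brain and auditory neurons, rose most in the family. Its level was 32.12, 34.90 and 28.99 CPM in GFP and 43.42, 47.76 and 46.67 CPM in Ezh2-Y726D, without overlap (log2 fold change 0.51, SE 0.0639, adjusted P = 2.94e-07). Cacna2d2 (ENSMUSG00000010066, chromosome 9, 107399612 to 107529343), which binds gabapentin and is mutated in ducky mice, held 81.83, 86.94 and 74.37 CPM in GFP and 109.2, 113.1 and 109.8 CPM in Ezh2-Y726D. Its Ezh2-Y726D libraries lay close together and above all GFP libraries (log2 fold change 0.44, SE 0.0475, adjusted P = 2.30e-08).

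Cacna2d1 (ENSMUSG00000040118, chromosome 5, 15934691 to 16374511), the other gabapentin-binding subunit and a thrombospondin receptor, held 52.61, 54.35 and 60.62 CPM in GFP and 65.64, 71.59 and 65.99 CPM in Ezh2-Y726D. The highest GFP library and the lowest Ezh2-Y726D library were only a few CPM apart, yet the groups did not overlap (log2 fold change 0.30, SE 0.056, adjusted P = 1.17e-04).

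Both gamma genes rose, and they lie near each other on the minus strand of chromosome 11. Cacng5 (ENSMUSG00000040373, 107874605 to 107915055), a TARP of the type that shapes the kinetics of AMPA receptors, had the largest change of the 10 genes. Its level was 20.07, 20.61 and 20.04 CPM in GFP and 34.04, 36.90 and 32.18 CPM in Ezh2-Y726D, a 1.70-fold (log2 0.76, SE 0.0694, adjusted P = 1.12e-09) higher level with a wide gap between the groups. Cacng4 (ENSMUSG00000020723, 107732357 to 107794557), a TARP related to stargazin, held 51.11, 51.78 and 49.86 CPM in GFP and 63.95, 63.13 and 60.31 CPM in Ezh2-Y726D. Its libraries were tight within each group, and the rise was smaller (log2 fold change 0.29, SE 0.0519, adjusted P = 6.40e-05).

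To compare levels between genes, CPM were divided by the length of the union of a gene's exons in kb, which gives an RPKM on the TMM scale. On this scale Cacna2d4 was the most abundant auxiliary subunit in both groups (26.0 ± 1.17 in GFP and 19.1 ± 0.485 in Ezh2-Y726D, mean ± SD, n = 3), and Cacng4 came next (14.2 ± 0.273 and 17.5 ± 0.534). In GFP they were followed by Cacnb3 (10.3 ± 1.18) and Cacna2d2 (10.2 ± 0.796), which did not differ beyond their spread, and then by Cacnb2 (6.36 ± 0.0409) and Cacng5 (5.28 ± 0.0837). The lowest were Cacnb4 (4.77 ± 0.300), Cacna2d1 (4.50 ± 0.339), Cacna2d3 (3.67 ± 0.339) and Cacnb1 (3.41 ± 0.292). Within this group Cacnb4 did not differ from Cacna2d1, nor Cacna2d3 from Cacnb1, beyond their spread. In Ezh2-Y726D, Cacna2d2 (13.9 ± 0.264) stood above Cacnb3 (12.8 ± 0.319) and Cacng5 (8.97 ± 0.620) above Cacnb2 (6.84 ± 0.175). The remaining RPKM were 6.60 ± 0.131 for Cacnb4, 5.46 ± 0.269 for Cacna2d1, 5.27 ± 0.259 for Cacna2d3 and 3.95 ± 0.353 for Cacnb1, and Cacna2d1 and Cacna2d3 overlapped. The order depended on the length used. With the longest annotated transcript as length, Cacnb2 took rank 2 in GFP and rank 4 in Ezh2-Y726D in place of 5 and 6, above Cacng5 in both groups. Cacng4 then moved from rank 2 to 4 in GFP and 5 in Ezh2-Y726D, Cacna2d2 took rank 2 in Ezh2-Y726D and Cacna2d3 moved from rank 9 to 6 in both groups, while Cacna2d4 and Cacnb1 remained first and last.

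These levels gave the make-up of each family. Cacna2d4 held 57.85%, 58.53% and 59.34% of the summed alpha2delta RPKM in the GFP libraries and 43.70%, 42.64% and 44.44% in the Ezh2-Y726D libraries. Its mean share was thus more than the other alpha2delta genes combined in GFP and less than them in Ezh2-Y726D. Cacna2d2 went from 23.0% ± 1.16 to 31.9% ± 0.460, Cacna2d3 from 8.27% ± 0.499 to 12.1% ± 0.337 and Cacna2d1 from 10.2% ± 1.00 to 12.5% ± 0.466 (SD, n = 3 each). Among the beta subunits the make-up moved less. The share of Cacnb4 was 19.3% ± 1.63 in GFP and 21.9% ± 0.593 in Ezh2-Y726D, a difference of 2.63 percentage points that came to 1.73 without GFP replicate 1, and that of Cacnb2 was 25.7% ± 1.495 and 22.7% ± 0.887. The shares of Cacnb3 (41.3% ± 2.56 and 42.4% ± 0.586) and Cacnb1 (13.7% ± 0.758 and 13.1% ± 0.975) overlapped between the groups. Of the pair of gamma genes, Cacng5 held 27.0% ± 0.230 in GFP and 33.9% ± 1.201 in Ezh2-Y726D, and Cacng4 the rest. By a two-sided exact permutation test of 3 libraries against 3, whose smallest p is 0.1, 8 of the 10 shares reached 0.1, while Cacnb1 gave 0.5 and Cacnb3 gave 0.8. Shares within a family sum to 100% and are not independent of each other.

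**Figure D2:**
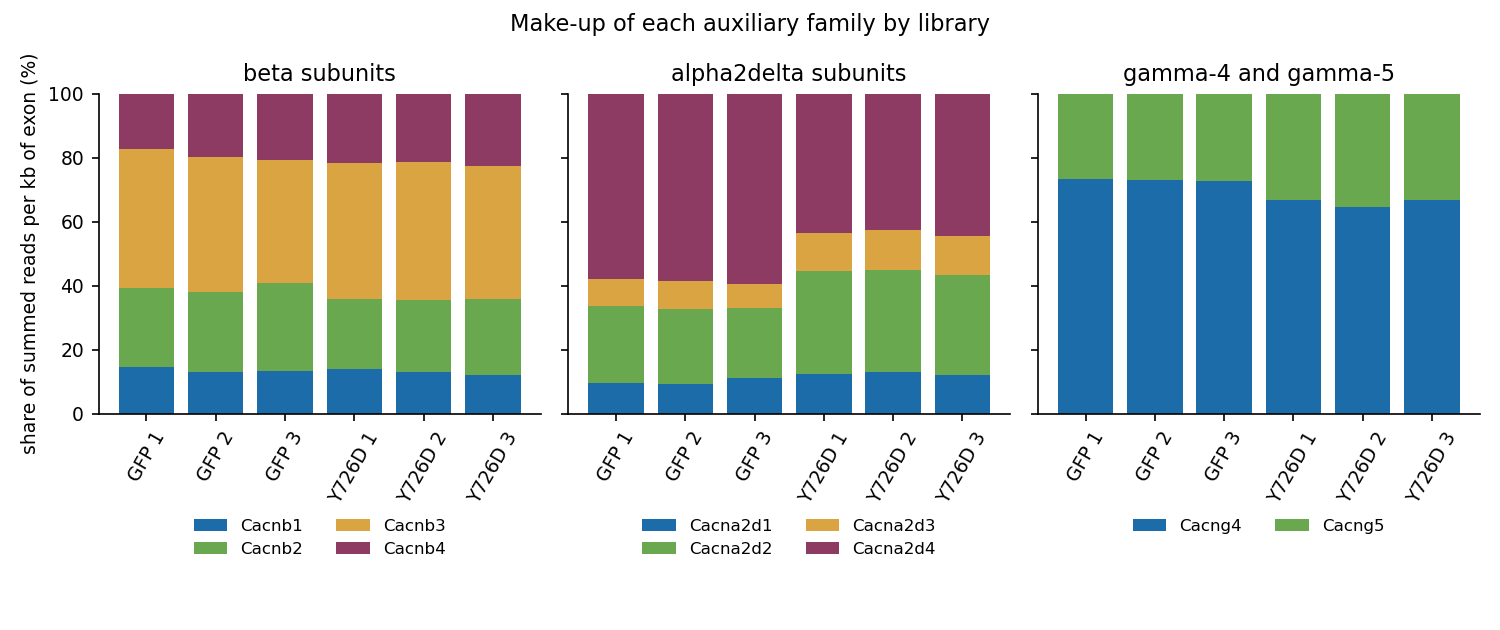
Make-up of each family by library, as the share in percent of the summed reads per kb of exon, with 1 stacked bar per library that sums to 100%. The Cacna2d4 segment takes 57.85% to 59.34% of the alpha2delta bars in GFP and 42.64% to 44.44% in Ezh2-Y726D. In the beta bars the Cacnb4 segment is larger in Ezh2-Y726D (21.51% to 22.58% against 17.45% to 20.62%) and the Cacnb2 segment smaller (21.88% to 23.63% against 24.71% to 27.40%).

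The alpha1 subunits, the pores that these proteins accompany, were next compared, from a list of all 10 genes. All passed the test, against 27.5% of all genes, 7 higher and 3 lower, and none overlapped between the groups, as was the case for 38.6% of all genes. Among the genes that rose were Cacna1c (log2 fold change 0.61, SE 0.0735), Cacna1e (0.44, SE 0.0622), Cacna1g (0.40, SE 0.0474) and Cacna1b (0.39, SE 0.0553), the pores of L-type, R-type, T-type and N-type channels. Cacna1i (0.36), Cacna1a (0.35) and Cacna1d (0.25), which form T-type, P/Q-type and L-type pores, rose as well. Those that fell were Cacna1h, a T-type pore (-0.61, SE 0.0392), Cacna1f, the L-type pore of photoreceptor terminals and the partner of Cacna2d4 there (-0.34, SE 0.0461), and Cacna1s, the skeletal muscle pore (-0.27, SE 0.0918, adjusted P = 0.0248), which shares 20% of its exonic bases with Gm37759 on the other strand. On the RPKM scale Cacna1h was the most abundant of the 10 in both groups (19.4 in GFP and 12.7 in Ezh2-Y726D), and Cacna1f followed in GFP (10.2) but stood under Cacna1g, Cacna1i and Cacna1d in Ezh2-Y726D (7.99).

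**Figure D3:**
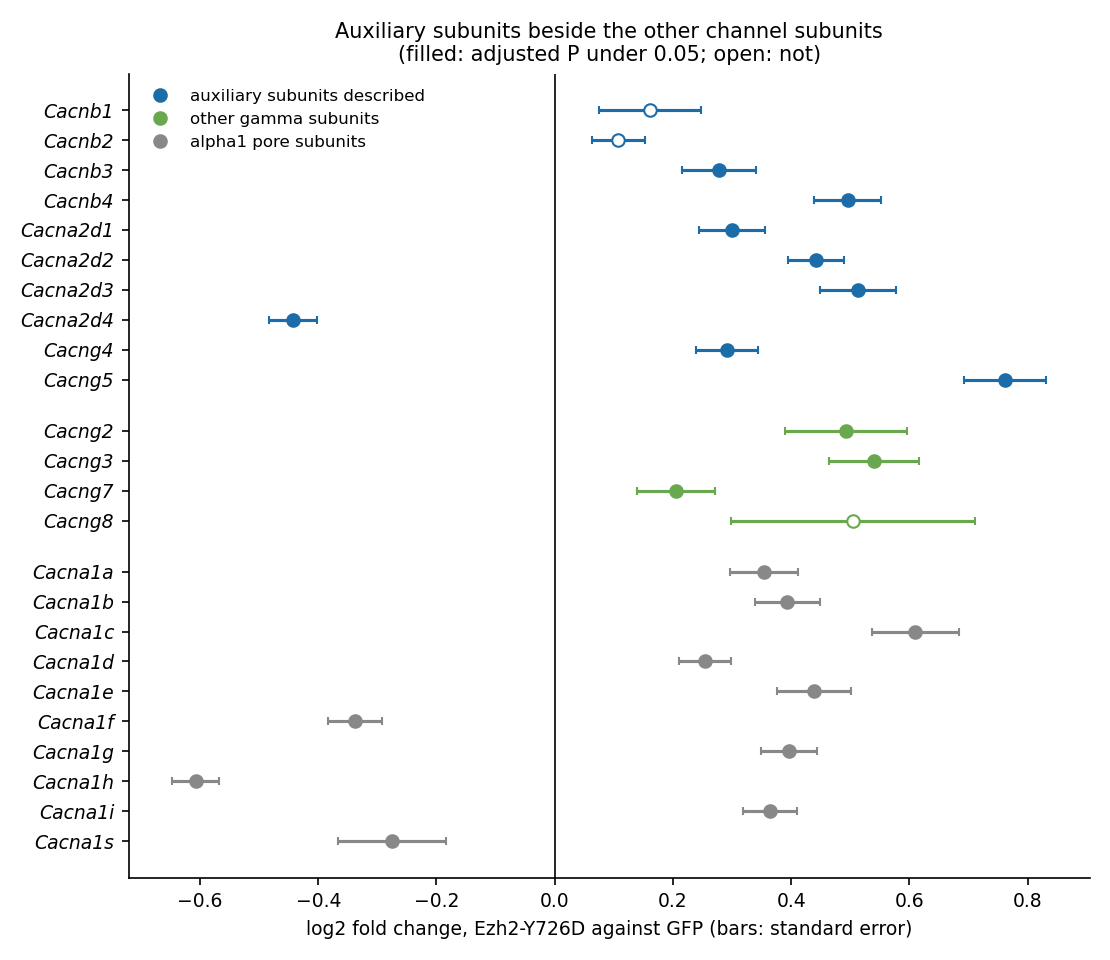
Log2 fold change of Ezh2-Y726D against GFP for the auxiliary subunits, the other gamma subunits and the alpha1 subunits, with bars for the standard error; filled points passed an adjusted P under 0.05 and open points did not. The auxiliary subunits lie between 0.11 and 0.76 except Cacna2d4 at -0.44, and Cacna1f, Cacna1h and Cacna1s are the alpha1 genes left of 0.

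Auxiliary and pore subunits were also set against each other, as sums of RPKM over the high-voltage-activated alpha1 genes, which are the alpha1 genes other than the T-type Cacna1g, Cacna1h and Cacna1i. The summed beta subunits came to 0.834 ± 0.0526 of these pores in GFP and 0.951 ± 0.0239 in Ezh2-Y726D, and the summed alpha2delta subunits to 1.49 ± 0.0401 and 1.38 ± 0.0151 (SD, n = 3 each). Neither ratio overlapped between the groups, and they moved in opposite directions. Without division by length the differences kept their signs, but that of the beta subunits fell from 0.117 to 0.0372. No test of these ratios is given. A pair of further ratios was chosen after the values were seen and is given without a test as well. Cacna2d1, Cacna2d2 and Cacna2d3 together came to 0.937 ± 0.0195 of the same pores without Cacna1f in GFP and 1.04 ± 0.0215 in Ezh2-Y726D. Cacna2d4 over Cacna1f was 2.553, 2.702 and 2.409 in the GFP libraries and 2.344, 2.353 and 2.461 in the Ezh2-Y726D libraries, so the groups overlapped: both genes were lower in Ezh2-Y726D, and the ratio between them did not separate the groups.

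The other gamma genes and the AMPA receptor genes followed Cacng4 and Cacng5 in direction. Of the 6 other gamma genes, 4 were tested, 3 of which rose. They were Cacng3 (log2 fold change 0.54, SE 0.0763), Cacng2, known as stargazin (0.49, SE 0.103), and Cacng7, the TARP most like Cacng5 (0.21, SE 0.0658, with overlapping groups). Cacng8 had a value of 0.50 (SE 0.206, adjusted P = 0.0697). Cacng1, a skeletal muscle subunit, had no reads in GFP and hardly any in Ezh2-Y726D, and Cacng6 was not analysed here. All 7 AMPA receptor partners rose, against 13.9% of all genes. The largest rises were in Cnih3 (log2 fold change 0.96, SE 0.127), which encodes a cornichon that escorts AMPA receptors, and in the receptor subunits Gria3 (0.64, SE 0.0631) and Gria4 (0.58, SE 0.041), with Cnih2 close to them (0.58, SE 0.112). The list's median was 0.58.

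Genes of other channel regulators moved both ways. Of 15 such genes, 6 rose and 4 fell, against 13.9% and 13.6% of all genes, with a median of -0.02. Those that fell were Rem1 (log2 fold change -1.11, SE 0.381) and Gem (-0.52, SE 0.0873), small GTPases of the RGK family that bind beta subunits and inhibit channel currents, and Cabp2 (-0.93, SE 0.160) and Cabp5 (-0.61, SE 0.0509), calcium-binding proteins of bipolar cells. Rem1 was scarce in these libraries, between 0.245 and 1.03 CPM. Among the regulators that rose were Cabp1 (0.44), Cachd1, whose product resembles alpha2delta subunits (0.34), Stac2 (0.28) and the calmodulin genes Calm2 and Calm3 (0.24 and 0.27).

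Among 13 presynaptic scaffolds and alpha2delta ligands, 6 rose and 1 fell, against 13.9% and 13.6% of all genes. Rimbp2, which ties channels to the release site, had a log2 fold change of 0.52 (SE 0.0594), and Bsn, the gene of the scaffold bassoon, had 0.37 (SE 0.0466). Rims1, Erc1 and Erc2, further scaffold genes, also rose. The gene that fell was Thbs1, a thrombospondin gene and thus a ligand of Cacna2d1, at 47.18, 48.04 and 51.68 CPM in GFP and 15.99, 12.87 and 14.89 CPM in Ezh2-Y726D. Its log2 fold change was -1.72 (SE 0.0705, adjusted P = 1.99e-16), larger in size than that of any auxiliary subunit. Thbs2, Thbs3, Thbs4, Elfn1, Elfn2 and Rims2 did not pass.

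Finally, the subunit genes were set beside the cell type markers. Cacna2d4 and Cacna1f moved in the direction of the cone and bipolar markers. Most tested markers of microglia, activated phagocytes, T cells, astrocytes, and pericytes and smooth muscle also fell. The summed rod markers were higher in Ezh2-Y726D (6195 to 6395 CPM, against 5650 to 5820 CPM in GFP). The subunits that rose moved in the direction of the amacrine markers, whose median log2 fold change was 0.58. Which cell types these changes came from was not tested. The ratios to markers below were chosen after the values were seen and are given as a description. Cacna2d4 over the summed cone markers was 0.592 ± 0.0381 in GFP and 0.669 ± 0.00652 in Ezh2-Y726D, so it was lower by less than this sum. Single cone markers had log2 fold changes from -0.81 (Cnga3) to -0.39 (Opn1mw), a range that holds the -0.44 of Cacna2d4. Over the summed bipolar markers it was 0.262 ± 0.0104 and 0.232 ± 0.00317, so it was lower by more than this sum, which includes Prkca, a marker that rose. The other 6 bipolar markers had log2 fold changes from -0.74 (Vsx1) to -0.34 (Grm6), a range that holds the -0.44 of Cacna2d4. Over the summed rod markers it was 0.0430 ± 0.00235 and 0.0287 ± 0.000277 (SD, n = 3 each).

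Against the summed amacrine markers, the rising subunits fell into 3 sets. Cacng5 alone was higher in Ezh2-Y726D, with ratios of 0.0146, 0.0154 and 0.0163 in GFP and 0.0167, 0.0182 and 0.0164 in Ezh2-Y726D, which did not overlap but nearly touched. The ratios of Cacna2d3 (means of 0.0244 and 0.0229) and Cacnb4 (0.0327 and 0.0295) overlapped between the groups. Those of Cacna2d2 (0.0617 and 0.0552), Cacna2d1 (0.0428 and 0.0338), Cacng4 (0.0388 and 0.0311) and Cacnb3 (0.0313 and 0.0255) were lower in Ezh2-Y726D without overlap. These genes rose by less than the amacrine sum did, though Cacna2d2 (log2 fold change 0.44) rose by more than the single marker Tfap2c (0.41).

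**Figure D4:**
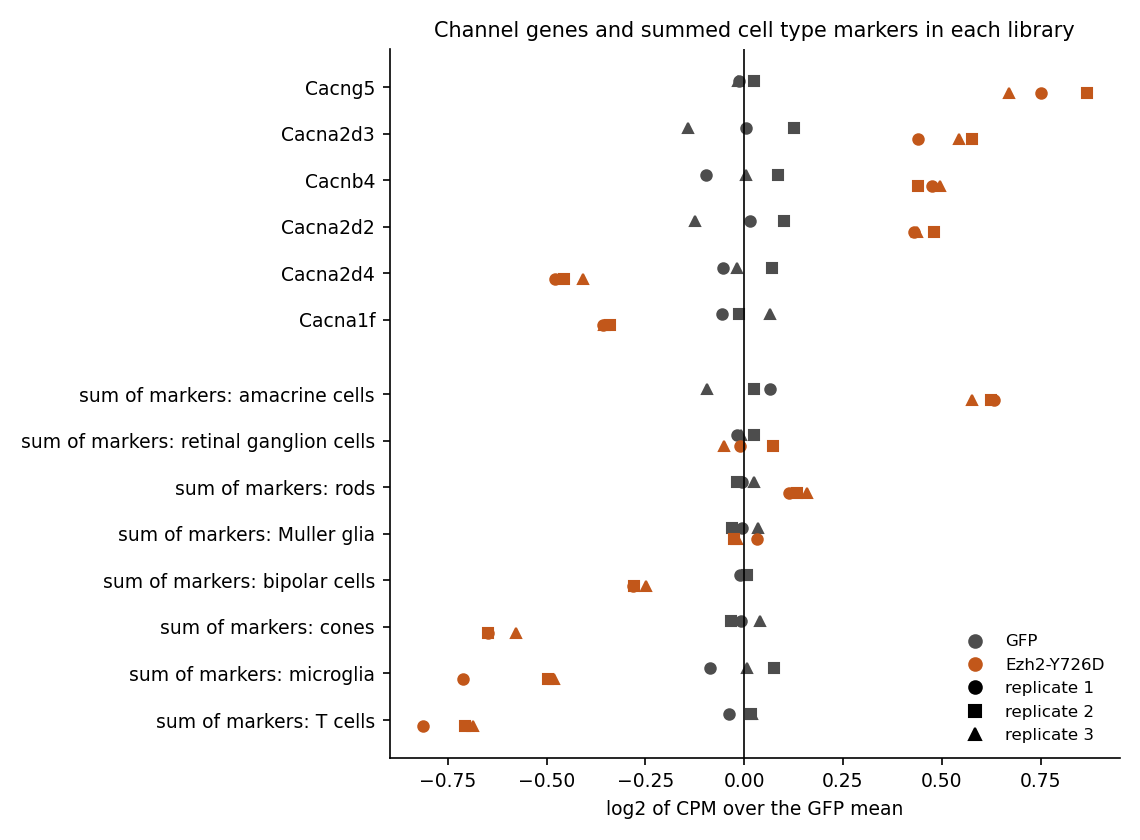
Log2 of CPM over the mean of the GFP libraries for 5 auxiliary subunit genes, Cacna1f and the summed markers of 8 cell types, with 1 point per library (GFP gray, Ezh2-Y726D orange, symbols for replicates). Cacng5, Cacna2d3, Cacnb4, Cacna2d2 and the amacrine and rod sums lie right of 0 in Ezh2-Y726D. Cacna2d4, Cacna1f and the bipolar, cone, microglia and T cell sums lie left of it, and the RGC sum (433.7 to 472.1 CPM in Ezh2-Y726D) spans it.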

How the data were processed

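Total RNA of sorted cells was made into stranded libraries, and the authors deposited whole-number read counts per gene without normalization. The submitters' processing notes name STAR 2.7.0d and GRCm38, and the counting tool, annotation and strand setting are not given in the sources used here. Of 32371 Ensembl identifiers, 32325 had a symbol in a gene name table and 32342 an entry in GENCODE vM21, from which coordinates, exon overlap and lengths were taken. Libraries were assigned by column name. Groups were compared with the quasi-likelihood method of edgeR (version 4.0.16, limma 3.58.1, R 4.3.3) with TMM factors of 0.647 to 1.31, filterByExpr (minimum count 10, total 15) and P values adjusted by Benjamini-Hochberg over 18138 genes. The procedure was tested on simulated data. Library pairs within a group differed by more than sampling noise (chi-square per degree of freedom 1.49 to 3.03), so no library was counted as a copy. This measure cannot show whether the libraries came from separate animals or from separate pools of cells. The smallest library kept 4460732 counts outside the rRNA gene, where 3 reads are 0.497 CPM. The subunits, the partner and marker lists and the alternatives were chosen with earlier results of these data known. Named genes are the subunits, all alpha1 genes, up to 4 genes with the largest significant changes per partner list, Ezh2, Thy1, CT010467.1 and defining markers, and the other partner genes were named after their values were seen. Some further items are not reported. Alternatives were RLE factors, library totals, DESeq2 1.42.0, other filters, a replicate block, each library left out, and other lengths.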

Additional observations from a re-analysis of the deposited data

How the results depend on the processing

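The 8 calls among the 10 auxiliary subunits kept their direction and their side of the threshold with RLE size factors, DESeq2, without the expression filter, with a minimum of 10 counts per library, library totals without CT010467.1, each library left out in turn and, an alternative added after seeing the data, GFP replicate 1 as the only GFP library. In the last fit the lone GFP sample was assumed to vary like the Ezh2-Y726D libraries. Without 1 library at a time the log2 fold change of Cacng5 ran from 0.71 to 0.81, that of Cacna2d4 from -0.48 to -0.41 and that of Cacnb1, which did not pass in any of these fits, from 0.09 to 0.27. With a fold change over 1.5 required as well, 1 subunit was higher and 0 were lower, against 7 and 1. Scaling by library totals, which include the rRNA gene, moved the median of all genes to 0.49 on the log2 scale. Under it edgeR called 0 subunits higher, 0 lower and 0 genes of the partner lists (DESeq2 with its own size factors kept the 8 calls). It called 65 genes in all, 70.8% of them higher, against 4988 and 50.6%. Cacna2d4 then had a log2 fold change of 0.0708 (SE 0.386, adjusted P = 0.891), which is -0.42 relative to that fit's median. Without division by length, the difference in the ratio of summed beta subunits to pores was 0.0372 and that of summed alpha2delta subunits -0.158, against 0.117 and -0.111.

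With the replicate block, 5223 genes passed, and Cacnb1 passed as well (log2 fold change 0.21, adjusted P = 0.0409), while the other calls among the subunits stayed. The deviations of same-numbered libraries correlated at 0.137, 0.051 and 0.039, and each library correlated best with its own number, which is a hint from the data and not from the design. Cacnb1 had 86 and 118 reads in GFP replicates 3 and 2, the fewest of the 10 subunits in these libraries.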
